A study of Mus musculus with 12 samples.

Results

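The genes described here are 45 genes of the cell division cycle, chosen by symbol from the 23284 genes of each table: 18 that act in DNA replication (S phase) and 27 that act in mitosis. They were read in natural killer T (NKT) cells, T cells whose receptor recognises lipids held by the molecule CD1d. Total RNA was sequenced from 12 libraries of sorted cells of C57BL/6 mice, 3 in each of 4 groups. In each tissue, NKT cells from cKO mice are set against NKT cells from YFP+ mice. The cKO mice carry a Cre transgene under E8III, which acts at the CD4+CD8+ double-positive (DP) stage of thymocyte development, and a floxed Rag2 gene. Their NKT cells are of double-negative (DN) origin. The YFP+ mice carry the same E8III-Cre with a Rosa26-loxP-STOP-loxP allele, and their NKT cells are of DP origin. The groups are thymus cKO, thymus YFP+, liver cKO and liver YFP+. The sort took 7AAD-negative (live) cells without CD45R, CD4 or CD8 that carried TCRb and bound a CD1d dimer, and thymocytes had been depleted of CD4+, CD8+ and DP cells beforehand. By these descriptions the cKO mice differ from the YFP+ mice in Rag2 and in the Rosa26 allele. They also differ in the route their NKT cells can take. The effects of cell origin and of mouse genotype cannot be told apart. The labels give the stage as mature invariant NKT cell and do not say how many animals or pools stand behind a library, so a p-value here measures library-to-library spread, which may be technical.

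A cell copies its DNA once in S phase and divides it in mitosis. Before S phase, Cdc6 and Cdt1 load the ring-shaped MCM helicase onto replication origins; Cdc45 and the GINS complex then activate it, while ribonucleotide reductase, thymidylate synthase and thymidine kinase supply the building blocks. Transcripts of mitotic genes such as the B-type cyclins accumulate later, in G2 and mitosis, so replication and mitotic genes need not move together. In the thymus, NKT cells divide mainly while they are young, and mature NKT cells of thymus and liver divide little.

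Expression is in FPKM, which divides the fragments of a gene by its length and by the library total, and the depth of a library is unknown. In the liver the title and the description of all 6 libraries disagree about the mouse; the column headers of the values match the titles, which are used here; if the descriptions were right instead, each liver change would run the other way. Rag2 was listed at 0 in all 3 liver libraries titled cKO, against 1.365, 0.985 and 1.075 FPKM in those titled YFP+. In the thymus, cKO replicate 2 alone had a value above 0 (0.015 FPKM). Rag1, which is not the floxed gene, was also lower in the liver libraries titled cKO. It averaged 0.188 FPKM in those and 1.72 in those titled YFP+, so Rag2 does not settle the labels. Summed over Cd3d, Cd3e, Cd3g, Zbtb16, Tbx21, Il2rb and Klrb1c, the 7 markers of NKT and T cells, levels were 1117 to 1150 FPKM in thymus cKO against 1349 to 1519 in thymus YFP+, and 3089 to 3115 FPKM in liver cKO against 3197 to 3614 in liver YFP+. Each comparison was tested with limma on log2(FPKM + 1) for genes averaging 1 FPKM or more, with Benjamini-Hochberg adjustment over all genes tested and a threshold of 0.05. Of the 7 markers of NKT and T cells, 3 passed as lower in the thymus. In the liver 2 of them passed as lower and 1 as higher. The median gene fell by 0.16 in the thymus and by 0.11 in the liver on the log2 scale, and with median-ratio scaling of the libraries these shifts were 0 and -0.01. Log2 changes of cKO over YFP+ are therefore given below relative to the median gene of the same tissue, while each adjusted p tests the change as fitted.

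The promoters below belong to the replication and mitotic genes with the largest changes in the liver, the tissue in which more of the genes passed the test. Each runs from 250 bases before to 50 bases after the annotated start of the gene, 5′ to 3′ on its own strand, from RefSeq on the build GRCm38.p6; the expression tables were made on mm9, and no coordinate is carried between the builds. Capitals mark 3 kinds of motif on either strand: the E2F core, as TTCCCGC, as the variant TTGGCGC, as the variant TTCGCGC or as the variant TTGCCGC, bound by the factors of the G1/S transition; the CHR (TTTGAA), bound by the MuvB complex of cell cycle genes; and the CCAAT box (CCAAT), bound by NF-Y. The reverse complement of TTGGCGC can share its last letters with a CCAAT box. Gins2 and Aurkb were also among the genes with the largest changes.
Tk1, chr11:117825965-117826264, minus strand: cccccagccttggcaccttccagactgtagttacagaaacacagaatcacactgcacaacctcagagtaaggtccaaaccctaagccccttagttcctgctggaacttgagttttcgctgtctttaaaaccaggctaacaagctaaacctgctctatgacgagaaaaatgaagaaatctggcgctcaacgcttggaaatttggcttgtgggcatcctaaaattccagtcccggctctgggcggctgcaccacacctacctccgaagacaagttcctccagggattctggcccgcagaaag
Tyms, chr5:30073576-30073875, minus strand: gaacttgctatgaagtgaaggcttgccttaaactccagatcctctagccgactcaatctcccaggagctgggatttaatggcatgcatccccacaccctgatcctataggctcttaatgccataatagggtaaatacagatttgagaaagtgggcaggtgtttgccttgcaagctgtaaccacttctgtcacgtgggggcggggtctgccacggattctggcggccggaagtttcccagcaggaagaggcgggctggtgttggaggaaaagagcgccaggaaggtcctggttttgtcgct
Rrm2, chr12:24708004-24708303, plus strand: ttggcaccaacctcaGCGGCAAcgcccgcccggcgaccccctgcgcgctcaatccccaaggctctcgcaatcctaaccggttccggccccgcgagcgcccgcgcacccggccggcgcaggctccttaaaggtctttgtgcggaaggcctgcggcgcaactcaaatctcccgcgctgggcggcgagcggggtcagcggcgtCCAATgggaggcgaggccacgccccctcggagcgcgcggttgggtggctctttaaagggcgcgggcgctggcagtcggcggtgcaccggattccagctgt
Ube2c, chr2:164769679-164769978, plus strand: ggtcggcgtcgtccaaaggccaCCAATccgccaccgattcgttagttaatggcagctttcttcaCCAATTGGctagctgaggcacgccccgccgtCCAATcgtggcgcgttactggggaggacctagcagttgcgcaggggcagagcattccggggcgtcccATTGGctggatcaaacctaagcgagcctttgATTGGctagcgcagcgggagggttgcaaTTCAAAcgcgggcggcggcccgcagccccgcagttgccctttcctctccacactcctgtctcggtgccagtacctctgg
Ccnb1, chr13:100786437-100786736, minus strand: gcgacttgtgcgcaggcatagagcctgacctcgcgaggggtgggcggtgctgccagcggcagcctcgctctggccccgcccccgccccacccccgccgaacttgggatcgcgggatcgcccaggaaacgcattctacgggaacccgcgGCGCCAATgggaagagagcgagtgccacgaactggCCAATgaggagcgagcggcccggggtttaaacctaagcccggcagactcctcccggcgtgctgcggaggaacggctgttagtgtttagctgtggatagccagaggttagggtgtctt
Ccnb2, chr9:70421505-70421804, minus strand: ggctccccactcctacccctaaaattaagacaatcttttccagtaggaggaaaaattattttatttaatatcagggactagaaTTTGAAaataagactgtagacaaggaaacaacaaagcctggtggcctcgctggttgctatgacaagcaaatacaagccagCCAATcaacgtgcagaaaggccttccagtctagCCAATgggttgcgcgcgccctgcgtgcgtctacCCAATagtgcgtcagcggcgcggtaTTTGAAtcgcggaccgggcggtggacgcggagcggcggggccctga

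The Tk1 and Tyms windows, of a gene lower and a gene higher in liver cKO cells, both held 0 matches. The Rrm2 window held 1 E2F core and 1 CCAAT box. The Ube2c window held 1 CHR and 6 CCAAT boxes, the Ccnb2 window 2 CHRs and 3 CCAAT boxes, and the Ccnb1 window 1 E2F core, 2 CCAAT boxes and no CHR. A promoter was found for 38 of the 45 genes. An E2F core was in 8 of 15 replication promoters (53.3%) and 6 of 23 mitotic promoters (26.1%), against 17.8% of the 6655 promoters of genes tested in the liver. The CHR showed the opposite order, with 2 of 15 replication promoters (13.3%) and 18 of 23 mitotic promoters (78.3%), against 12.5% of the 6655. CCAAT boxes were in 9 of 15 replication promoters (60%) and 20 of 23 mitotic promoters (87%), against 40.3%. Over the 27025 promoters of the whole table the shares were 9.69% for the E2F core, 18.1% for the CHR and 37.9% for the CCAAT box. Among the MCM subunits, 4 of 5 windows held an E2F core, and the Mcm6 window held 5. Read by the outcome in the liver, a CHR was in 11 of 21 windows of the genes that fell there (52.4%) and in 9 of 16 windows of those that did not pass or were not tested (56.2%), and an E2F core in 8 of 21 (38.1%) and 6 of 16 (37.5%). A match is a string of letters and not a bound site.

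**Figure D1:**
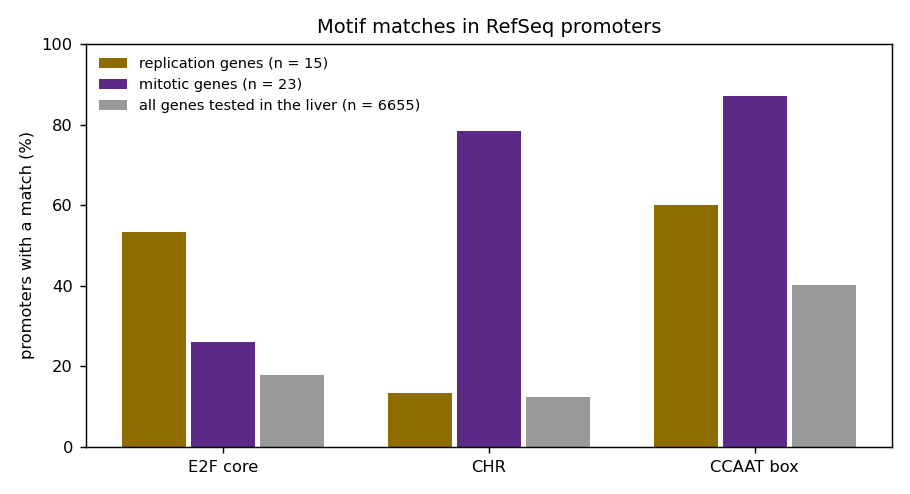
Share of promoters (%, vertical axis) with at least 1 match to each motif, for replication genes, mitotic genes and all genes tested in the liver. The CHR bar of the mitotic genes stands at 78.3%, against 13.3% for replication genes and 12.5% for all genes.

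In liver NKT cells, most of the 45 genes were lower in cKO than in YFP+ cells, and the median change of the mitotic genes was larger than that of the replication genes. Of the 40 genes that averaged 1 FPKM or more, 25 passed as lower, 1 as higher and 14 did not pass; 19.7% of all 9591 genes tested passed as lower and 7.49% as higher. The median change of the 40 was -0.63 relative to the median gene, and 36 of the 40 lay below it. By class, 16 of 23 mitotic genes passed as lower (median -0.80) and 9 of 17 replication genes (median -0.37), with 1 replication gene higher. Cdc6, Kif20a and Kif2c reached the mean of 1 FPKM only through the YFP+ libraries. Counted over all 45 genes, without any filter, the cKO mean was below the YFP+ mean in 43 (95.6%), against 62% of genes tested and 46.9% of all genes above 0. The 3 cKO libraries all lay below the 3 YFP+ libraries in 34; the groups separated this way in 29.6% of genes tested and in 18% of all genes above 0, and with cKO above in 1 of the 45, against 14.7% of genes tested. These are bulk libraries, so fewer dividing cells and less RNA per dividing cell cannot be told apart.

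**Figure D2:**
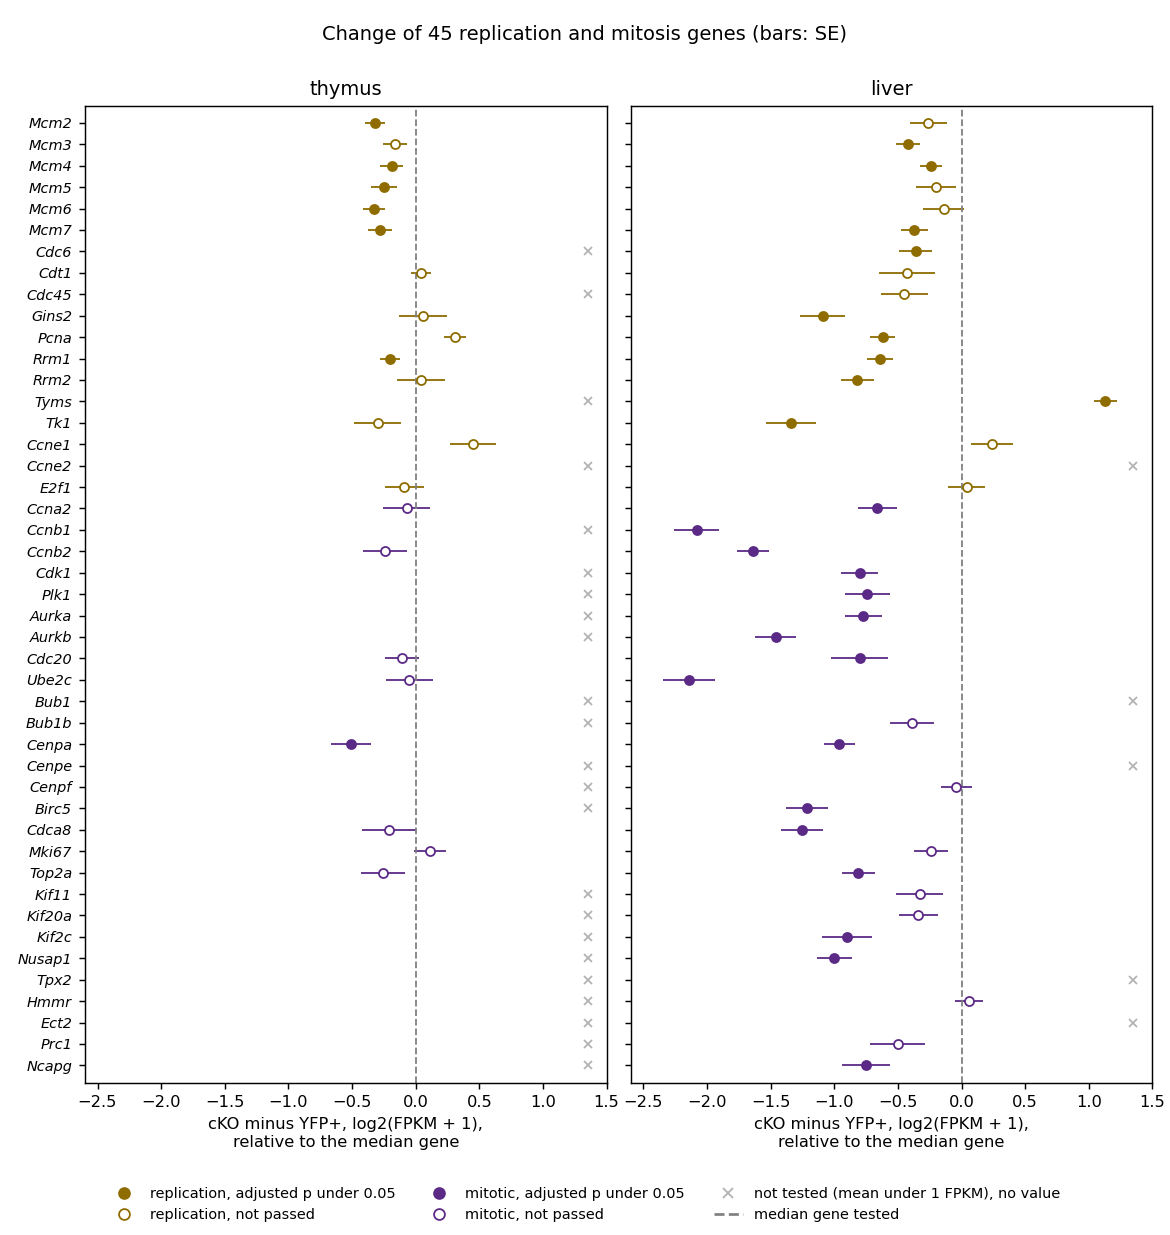
Change of cKO over YFP+ on the log2(FPKM + 1) scale relative to the median gene (horizontal axis, bars are the SE) for the 45 genes in thymus and liver; filled points passed at an adjusted p of 0.05 and crosses at the right edge carry no value. In the liver the mitotic genes reach further to the left than the MCM subunits at the top, and Tyms stands alone on the right.

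The licensing and helicase genes had the smallest median change of the classes in the liver (-0.37). All 10 were tested in the liver; 5 passed as lower and all 10 lay below the median gene. Gins2, a subunit of the GINS complex of the active helicase, had the largest change, with 7.150, 5.563 and 4.304 FPKM in liver cKO against 12.124, 16.415 and 13.875 FPKM in liver YFP+ (log2 change -1.09, SE 0.176, adjusted p = 0.00255). Mcm3 stood at 17.930, 21.396 and 20.838 FPKM in liver cKO against 28.418, 29.650 and 30.112 in liver YFP+ (-0.42, SE 0.096, adjusted p = 0.00559). For both genes the groups did not overlap. Mcm7 stood at 21.054, 22.336 and 26.114 FPKM in liver cKO against 30.694, 35.593 and 31.500 in liver YFP+ (-0.37, adjusted p = 0.0138), and Mcm4 passed too (-0.24, adjusted p = 0.0169). With libraries scaled to an equal sum the calls of Mcm3, Mcm4 and Mcm7 were all lost, leaving 0 MCM calls in the liver (adjusted p = 0.0735 for Mcm3); over 14 alternatives, Mcm3 was lost in 1, Mcm7 in 5 and Mcm4 in 6. Cdc6, the loading factor, was at 0.772, 0.809 and 0.908 FPKM in liver cKO against 1.397, 1.461 and 1.764 in liver YFP+ (-0.36, adjusted p = 0.0310), a call lost in 10 of 13 alternatives.

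Mcm2, Mcm5, Mcm6, Cdt1 and Cdc45 did not pass in the liver. Mcm6 was at 39.943, 36.441 and 37.078 FPKM in liver cKO against 33.694, 52.052 and 51.857 in liver YFP+ (-0.14, adjusted p = 0.290), and Mcm2 at 17.176, 15.212 and 13.713 FPKM in liver cKO against 16.138, 22.862 and 21.592 in liver YFP+ (-0.26, adjusted p = 0.0970). In both, YFP+ replicate 1 was low and overlapped the cKO libraries. Without that library both passed (adjusted p = 0.00687 for Mcm6 and 0.0153 for Mcm2), and 32 of the genes were called in place of 26. The 6 MCM subunits summed to 133.7, 130.7 and 136.6 FPKM in liver cKO against 153.8, 186.6 and 186.3 FPKM in liver YFP+.

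The nucleotide supply genes split in opposite directions. Tk1, thymidine kinase, stood at 6.822, 9.366 and 4.811 FPKM in liver cKO against 19.661, 18.747 and 22.448 in liver YFP+ (-1.34, SE 0.196, adjusted p = 0.00176). Rrm2, the small subunit of ribonucleotide reductase, stood at 15.346, 11.912 and 10.697 FPKM in liver cKO against 24.301, 24.559 and 25.238 in liver YFP+ (-0.82, adjusted p = 0.00201), and its large subunit Rrm1 at 11.676, 9.857 and 11.022 FPKM in liver cKO against 19.789, 18.189 and 18.589 in liver YFP+ (-0.64, adjusted p = 0.00171). All 3 genes were low in every cKO library. Tyms, thymidylate synthase, was the 1 gene of the 45 that passed as higher, with 42.557, 41.036 and 40.477 FPKM in liver cKO against 20.762, 18.028 and 20.887 in liver YFP+ (1.13, SE 0.090, adjusted p = 0.000274). Its mean in cKO was 2.08 times that in YFP+. Tyms and Tk1 both make thymidine monophosphate, Tyms from deoxyuridine monophosphate and Tk1 from thymidine.

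Pcna, the sliding clamp of the replication fork, was the most abundant of the 45 genes in the liver, at 79.161, 72.650 and 77.134 FPKM in liver cKO against 144.745, 119.658 and 117.291 in liver YFP+ (-0.62, SE 0.097, adjusted p = 0.00168). The groups did not overlap. The G1/S regulators gave no such separation. E2f1, a transcription factor of replication genes, was at 1.959, 2.042 and 2.046 FPKM in liver cKO against 2.373, 2.482 and 1.688 in liver YFP+ (0.04, adjusted p = 0.758), and Ccne1, the E-type cyclin that starts S phase with Cdk2, at 0.24 relative to the median gene (adjusted p = 0.595). Ccne2 averaged 0.698 FPKM in liver cKO and 1.11 FPKM in liver YFP+ and was not tested.

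All 9 mitotic cyclins, kinases and genes of the anaphase-promoting complex passed as lower in liver cKO cells, by -0.66 to -2.14 relative to the median gene. Ube2c, the ubiquitin-conjugating enzyme that works with that complex, had 3.072, 3.260 and 2.023 FPKM in liver cKO against 12.472, 19.471 and 19.426 in liver YFP+ (-2.14, SE 0.202, adjusted p = 0.000293). Ccnb1, cyclin B1, had 1.347, 2.406 and 2.540 FPKM in liver cKO against 12.215, 11.919 and 14.554 in liver YFP+ (-2.08, SE 0.177, adjusted p = 0.000183). The cKO mean of each was 0.163 times the YFP+ mean. Ccnb2, cyclin B2, had 2.849, 3.133 and 3.975 FPKM in liver cKO against 13.983, 13.514 and 12.879 in liver YFP+ (-1.64, SE 0.127, adjusted p = 0.000124).

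Aurkb, the kinase of the chromosomal passenger complex, stood at 0.868, 1.637 and 1.454 FPKM in liver cKO against 5.389, 6.300 and 5.760 in liver YFP+ (-1.46, SE 0.159, adjusted p = 0.000486). Cdk1, the kinase partner of the B-type cyclins, stood at 2.711, 3.184 and 3.053 FPKM in liver cKO against 6.880, 7.443 and 5.294 in liver YFP+ (-0.80, SE 0.144, adjusted p = 0.00340). Aurka, the kinase of the spindle poles, stood at 2.076, 2.328 and 2.720 FPKM in liver cKO against 5.356, 5.935 and 4.320 in liver YFP+ (-0.77, adjusted p = 0.00430). Each cKO library lay below each YFP+ library in all 9 genes of the class. Ccna2 (-0.66), Plk1 (-0.74) and Cdc20 (-0.80) passed with adjusted p values of 0.00861, 0.0103 and 0.0189; the call of Cdc20, an activator of the anaphase-promoting complex, was lost in 6 of 13 alternatives.

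At the kinetochore, 3 of 5 genes tested in the liver passed as lower. Cenpa, the histone H3 variant that marks centromeres, stood at 9.600, 9.784 and 8.742 FPKM in liver cKO against 17.813, 23.827 and 20.793 in liver YFP+ (-0.96, SE 0.122, adjusted p = 0.000825). Birc5 (survivin) and Cdca8 (borealin) join Aurkb in the passenger complex. Birc5 had 2.915, 1.938 and 3.159 FPKM in liver cKO against 8.727, 8.642 and 6.958 in liver YFP+ (-1.21, adjusted p = 0.00121), and Cdca8 had 6.522, 6.669 and 4.360 FPKM in liver cKO against 18.235, 16.982 and 14.082 in liver YFP+ (-1.25, adjusted p = 0.00110). Incenp, the scaffold of that complex and not among the 45, did not pass, at 2.84 FPKM on average in liver cKO and 3.37 in liver YFP+ (-0.09, adjusted p = 0.417). The checkpoint kinase Bub1b did not pass (-0.39, adjusted p = 0.0632), nor did the kinetochore protein Cenpf, at 4.27 ± 0.343 FPKM in liver cKO and 4.83 ± 0.366 in liver YFP+ (SD, n = 3 each; adjusted p = 0.391). Bub1 and Cenpe were not tested; Cenpe, a kinetochore motor, had 0.639, 0.376 and 0.474 FPKM in liver cKO against 1.068, 1.095 and 1.205 in liver YFP+.

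Of 9 spindle, chromosome structure and cytokinesis genes tested in the liver, 4 passed as lower. Nusap1, a microtubule-bundling protein, had 1.621, 1.389 and 1.048 FPKM in liver cKO against 3.921, 4.044 and 4.130 in liver YFP+ (-1, SE 0.137, adjusted p = 0.00120). Top2a, the topoisomerase that untangles sister DNA, had 5.552, 4.295 and 5.590 FPKM in liver cKO against 11.202, 9.592 and 10.921 in liver YFP+ (-0.81, adjusted p = 0.00210). The groups of both were apart. Kif2c, a microtubule-depolymerising kinesin, had 0.385, 1.186 and 0.574 FPKM in liver cKO against 2.050, 2.233 and 2.930 in liver YFP+ (-0.90, adjusted p = 0.00773), and Ncapg, a condensin subunit, had 1.348, 0.7 and 1.776 FPKM in liver cKO against 3.218, 2.721 and 3.238 in liver YFP+ (-0.75, adjusted p = 0.0128).

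The other genes of this class, among them the proliferation marker Mki67, did not pass or were not tested. Mki67, which encodes the Ki-67 antigen, had 2.205, 2.356 and 1.702 FPKM in liver cKO against 2.664, 3.089 and 3.020 in liver YFP+. The libraries did not overlap, but the change of -0.24 (SE 0.137) did not pass (adjusted p = 0.0923). Hmmr, a spindle and hyaluronan-binding protein, averaged 4.55 ± 0.313 FPKM in liver cKO and 4.73 ± 0.0521 in liver YFP+ (SD, n = 3 each; adjusted p = 0.784). The kinesins Kif11 and Kif20a and the midzone protein Prc1 did not pass (adjusted p = 0.108, 0.0632 and 0.0679), and all 3 passed without liver YFP+ replicate 1. Their means in liver cKO were 0.570, 0.535 and 0.559 times those in liver YFP+. Tpx2 and Ect2 were too low for a test, at 0.275 and 0.264 FPKM on average in liver cKO against 0.618 and 0.535 FPKM in liver YFP+.

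**Figure D3:**
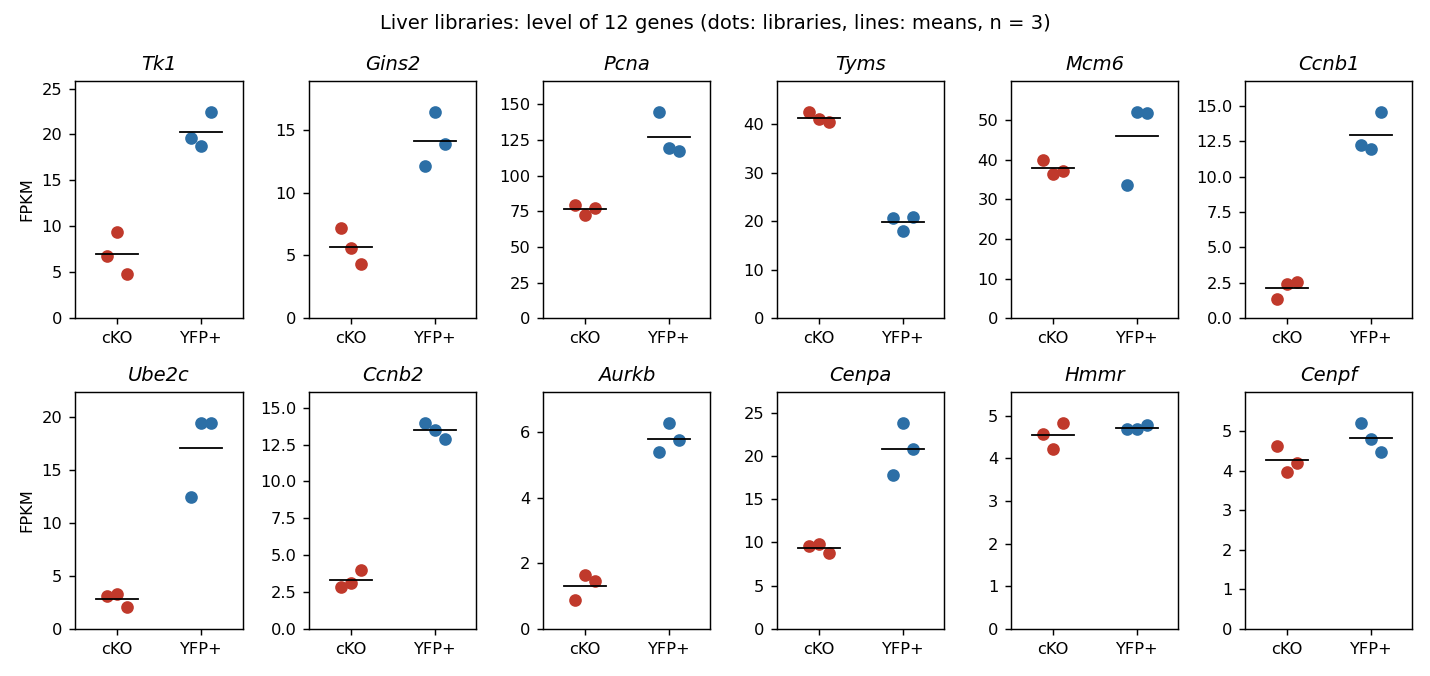
FPKM (vertical axis, from 0) of 12 of the genes in the 3 liver cKO and 3 liver YFP+ libraries, with the mean of each group as a line. Tyms is the panel with cKO above YFP+, Mcm6 shows the single low YFP+ library, and Hmmr and Cenpf lie at about the same level in both groups.

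Summed per library, the 27 mitotic genes gave 66.8, 66.2 and 63.5 FPKM in liver cKO against 157.5, 170.7 and 167.1 FPKM in liver YFP+, a ratio of group means of 0.397. The 18 replication genes summed to 308.1, 291.1 and 298.1 FPKM in liver cKO against 409.1, 417.5 and 425.2 in liver YFP+, a ratio of 0.717. The mitotic sum was thus 21.7, 22.8 and 21.3% of the replication sum in liver cKO libraries, against 38.5, 40.9 and 39.3% in liver YFP+ libraries. This share does not depend on library scaling. Without Mki67, Top2a and Ccna2, which are also transcribed in S phase, it was 17.8, 19.1 and 17.8% in liver cKO against 33.1, 36.4 and 34.6% in liver YFP+. The replication sum holds Tyms, the gene that passed as higher. Without Tyms that sum averaged 257.7 FPKM in liver cKO against 397.4 in liver YFP+, so Tyms narrows the difference between the groups in the replication sum. Tyms also lowers the mitotic share more in liver cKO than in liver YFP+, and so widens the difference in that share.

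**Figure D4:**
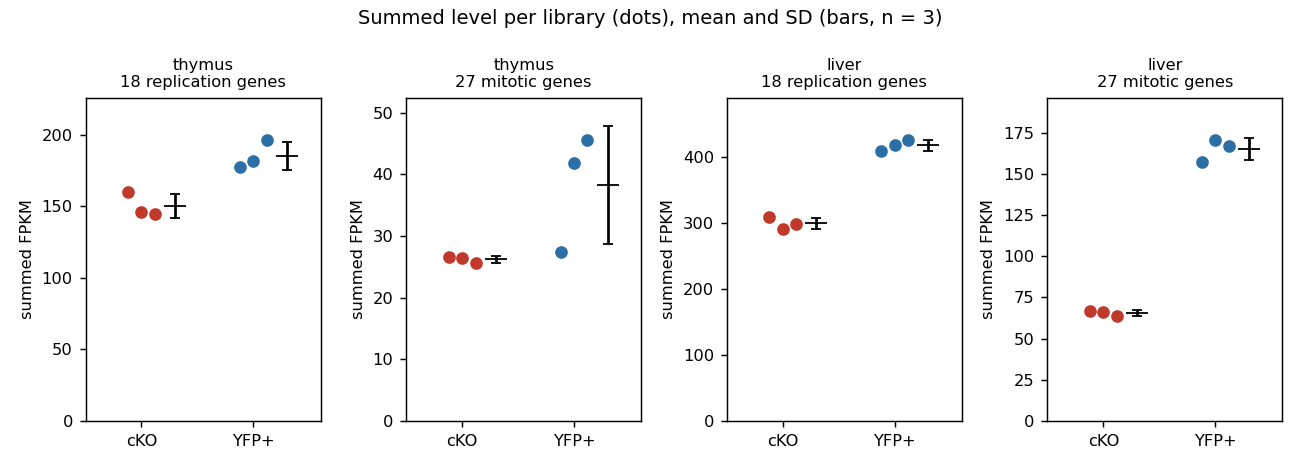
Summed FPKM (vertical axis, from 0) of the replication and of the mitotic genes in each library of cKO and YFP+ cells, with the mean and SD of each group (n = 3). In the liver the mitotic sums of cKO libraries are between 63.5 and 66.8, all under those of YFP+ libraries, and in the thymus YFP+ replicate 1 lies next to the cKO libraries in the mitotic panel.

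Other genes of the division machinery, from lists chosen with earlier results of these data known, were read in the same fits. Of 42 other replication genes tested in the liver 21 passed as lower and 1 as higher, with a median of -0.35 relative to the median gene. Rfc4, a clamp loader subunit, had 9.734, 10.825 and 10.359 FPKM in liver cKO against 33.607, 27.191 and 28.055 in liver YFP+ (-1.32, adjusted p = 0.000140). Prim2, a primase subunit (-1.17), and Rfc3, another clamp loader subunit (-0.95), passed as lower (adjusted p = 0.000354 and 0.00176), while Pold1, the catalytic subunit of polymerase delta, was the gene that passed as higher, by 0.83 (adjusted p = 0.00859). Of 31 other mitosis genes tested 21 passed as lower and 1, the phosphatase gene Cdc25b, as higher (1.04, adjusted p = 0.000777), with a median of -0.56. Pbk, a mitotic kinase, had 1.414, 0.851 and 1.910 FPKM in liver cKO against 7.211, 8.031 and 6.784 in liver YFP+ (-1.72, adjusted p = 0.000391), and Cdca3 (-1.39) and Stmn1 (-1.23) passed as lower too.

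Regulators of G1 went both ways in the liver. Of 6 G1 cyclins and kinases tested, Myc (1.14, adjusted p = 0.000793) and Ccnd2 (0.35, adjusted p = 0.0300) passed as higher and Cdk2 (-0.45, adjusted p = 0.0114) and Cdk4 (-0.36, adjusted p = 0.00384) as lower. Myc, a growth-promoting transcription factor, had 22.812, 20.191 and 21.370 FPKM in liver cKO against 8.635, 9.995 and 11.420 in liver YFP+. Of 7 inhibitors of cyclin-dependent kinases and pocket proteins tested, Cdkn2c passed as higher (0.99, adjusted p = 0.00397) and Cdkn2d (-0.99, adjusted p = 0.000959) and Cdkn1a (-0.61, adjusted p = 0.0176) as lower. None of 3 other E2F factors tested passed with limma, and 0 had an unadjusted p under 0.05.

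Markers of other cell types moved with these genes in the liver. The sum of 10 DP thymocyte markers was 25.3 to 26.3 FPKM in liver cKO against 82.8 to 92.8 in liver YFP+, and all 6 tested passed as lower. One of them, Dntt, had 0.486, 0.768 and 0.385 FPKM in liver cKO against 16.431, 16.261 and 15.678 in liver YFP+. The 10 erythroid markers summed to 10.7 to 15.8 FPKM in liver cKO against 641 to 743 in liver YFP+, all 4 tested being globins that passed as lower, while the membrane transporter gene Slc4a1 was at 0 in 5 of 6 liver libraries and at 0.017 FPKM in YFP+ replicate 2. The 6 B cell markers in the tables summed to 2.43 to 3.53 FPKM in liver cKO against 11.1 to 12.2 in liver YFP+, with both markers tested lower. The 10 myeloid markers summed to 29.6 to 35.3 FPKM in liver cKO against 65.2 to 92.6 in liver YFP+, with 1 of 4 tested lower. The 5 hepatocyte markers summed to 12.6 to 16.5 FPKM in liver cKO against 37.6 to 42.6 in liver YFP+, nearly all of it from Trf (transferrin), at 12.2 FPKM on average in liver cKO and 38.4 in liver YFP+. Trf was lower in the thymus too, at 4.80 FPKM in thymus cKO and 27.6 in thymus YFP+. The defining hepatocyte gene Alb was at 0 in all 3 liver YFP+ libraries and at no more than 0.059 FPKM in liver cKO, and Serpina1a did not pass (1.83 FPKM in liver cKO and 1.54 in liver YFP+). Of 4 gamma-delta T cell markers listed, only 2 were in the tables, and these ran the other way. They summed to 14.7 to 17.98 FPKM in liver cKO against 1.97 to 3.47 in liver YFP+. The part of these cells in the changes of the division genes was not tested.

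In the thymus the same 45 genes gave fewer calls, most of them for MCM subunits, while the largest change was that of the mitotic gene Cenpa. Only 22 of the genes were tested there, against 40 in the liver. FPKM were made separately per tissue. Summed over all genes, they gave 187828 to 212688 in thymus libraries against 450430 to 558042 in liver libraries. A filter and pseudocount of 1 FPKM therefore need not act alike in thymus and liver. The thymus values are also named paired and the liver values single, which cannot be told apart from tissue. Of 22 genes tested, 7 passed as lower, 0 as higher and 15 did not pass, while 11 had an unadjusted p under 0.05; 13.1% of all 9097 genes tested passed as lower and 2.64% as higher. The median of the 22 was -0.17 relative to the median gene. By class, 6 of 14 replication genes (median -0.17) and 1 of 8 mitotic genes (median -0.16) passed as lower. The class medians were thus nearly equal. With median-ratio scaling 2 passed as lower and 1 as higher. Leaving out cKO replicate 2 or YFP+ replicate 2 gave 3 calls in all, and leaving out the third library of either group gave 2. Among the other 23 genes, 19 were mitotic, and all had a mean under 1 FPKM in the thymus; Ube2c reached the mean of 1 FPKM only through the YFP+ libraries. Over all 45, the cKO mean was below the YFP+ mean in 41 (91.1%), against 79.2% of genes tested and 56.1% of all genes above 0. The libraries did not overlap in 9, with cKO below in each and 0 with cKO above (5.34% of genes tested); the groups separated with cKO below in 37.6% of genes tested and in 19.1% of all genes above 0.

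Mcm6 was the most abundant of the 45 in the thymus and stood at 37.316, 35.221 and 36.598 FPKM in thymus cKO against 47.903, 49.660 and 57.384 in thymus YFP+ (-0.33, SE 0.085, adjusted p = 0.00964). Mcm2 stood at 12.200, 11.358 and 11.404 FPKM in thymus cKO against 16.127, 15.875 and 18.083 in thymus YFP+ (-0.32, SE 0.082, adjusted p = 0.00907). These 2 calls held in all 14 alternatives. Mcm7 stood at 5.890, 5.791 and 6.154 FPKM in thymus cKO against 7.952, 7.855 and 9.544 in thymus YFP+ (-0.28, adjusted p = 0.0213), and Mcm5 at 7.856, 8.606 and 6.568 FPKM in thymus cKO against 10.203, 10.527 and 10.918 in thymus YFP+ (-0.25, adjusted p = 0.0325). Mcm4 passed (-0.19, adjusted p = 0.0369) and Mcm3 did not (-0.16, adjusted p = 0.0532). The libraries of all 6 subunits were apart, and summed they gave 93.8, 87.6 and 86.1 FPKM in thymus cKO against 118.6, 118.4 and 130.8 in thymus YFP+. With median-ratio scaling, Mcm2 and Mcm6 were the MCM calls left.

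Rrm1 stood at 6.848, 6.481 and 6.418 FPKM in thymus cKO against 8.334, 9.248 and 8.738 in thymus YFP+ (-0.20, adjusted p = 0.0226), a call lost in 9 of 14 alternatives. Pcna went the other way, at 35.367, 29.453 and 30.287 FPKM in thymus cKO against 27.259, 29.582 and 28.796 in thymus YFP+; it did not pass as deposited (0.31, adjusted p = 0.260) and passed as higher with median-ratio scaling (adjusted p = 0.0289) and quantile normalization (adjusted p = 0.0325). Tyms had 0.852, 0.843 and 1.104 FPKM in thymus cKO against 1.076, 0.843 and 1.187 in thymus YFP+, too low for a test. E2f1 had 1.649, 1.313 and 1.740 FPKM in thymus cKO against 2.553, 2.269 and 1.476 in thymus YFP+ (-0.09, adjusted p = 0.236). Its groups overlapped.

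Cenpa was the 1 mitotic gene that passed in the thymus, at 6.619, 6.526 and 5.934 FPKM in thymus cKO against 8.021, 11.842 and 12.990 in thymus YFP+ (-0.51, SE 0.156, adjusted p = 0.0274), and its call was lost in 7 of 14 alternatives. Top2a had 1.207, 2.467 and 2.074 FPKM in thymus cKO against 2.418, 3.226 and 2.962 in thymus YFP+ (-0.26, adjusted p = 0.114). Mki67 had 1.443, 1.579 and 1.520 FPKM in thymus cKO against 1.221, 1.836 and 1.841 in thymus YFP+ (0.11, adjusted p = 0.745). Both overlapped. Ccnb1, at 0.615, 0.713 and 0.437 FPKM in thymus cKO against 0.305, 0.602 and 1.335 in thymus YFP+, and Cdk1, at 0.834, 0.550 and 0.811 FPKM in thymus cKO against 0.793, 1.359 and 0.879 in thymus YFP+, were not tested. The sum of the mitotic genes was 26.5, 26.4 and 25.6 FPKM in thymus cKO against 27.4, 41.9 and 45.6 in thymus YFP+, and YFP+ replicate 1, the library at 27.4, stood apart from the other YFP+ libraries. Without that library 2 mitotic and 3 replication genes passed. The replication genes summed to 160.2, 145.8 and 144.7 FPKM in thymus cKO against 177.6, 181.6 and 196.3 in thymus YFP+, a ratio of group means of 0.811, against 0.684 for the mitotic genes.

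Of 32 other replication genes tested in the thymus, 4 passed as lower (12.5%), a share close to the 13.1% of all genes tested. These include the flap nuclease gene Fen1 (-0.54, adjusted p = 0.00810), Tipin (-0.33, adjusted p = 0.0354) and Rfc5 (-0.32, adjusted p = 0.0125). Of 17 other mitosis genes tested, 3 passed as lower and 2 as higher. Cdc25b, an activator of Cdk1, had 5.810, 6.558 and 6.009 FPKM in thymus cKO against 3.247, 4.062 and 3.583 in thymus YFP+ (0.79, adjusted p = 0.00668), and Cks2, a binding partner of Cdk1, passed as higher too (0.78, adjusted p = 0.0166), while the kinesin Kif22 passed as lower (-0.41, adjusted p = 0.0157). Ccnd3 passed as higher (0.50, adjusted p = 0.0179) and Cdk2 as lower (-0.19, adjusted p = 0.0432) among 6 G1 cyclins and kinases tested. The pocket protein genes Rb1 (-0.62, adjusted p = 0.00170) and Rbl2 (-0.45, adjusted p = 0.00469) were the 2 of 6 inhibitors and pocket proteins that passed, and E2f4 (-0.19, adjusted p = 0.0225) the 1 of 5 other E2F factors. The sum of the 10 DP thymocyte markers was 6.91 to 8.60 FPKM in thymus cKO against 17.4 to 22.2 in thymus YFP+, with 3 of 3 tested lower. The cKO mean was below the YFP+ mean in only 5 of the 10. Rag1 (0.0517 FPKM in thymus cKO and 0.00233 in thymus YFP+), Dntt (0.137 and 0.029) and Ptcra (0.28 and 0.108) ran the other way. The part of DP thymocytes in the changes was not tested. The erythroid sum reached 107.7 FPKM in thymus cKO replicate 1, and without that library 8 of the 45 genes were called.

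The difference between the tissues was tested for 37 of the 45 genes as the liver change minus the thymus change, fitted on all 12 libraries; these differences are given as fitted, not relative to the median gene. Of these, 13 were more negative in the liver and 1 more positive; 5.91% of 9739 genes tested passed as more negative and 9.14% as more positive, and the median gene differed by 0.06. The mitotic cyclin, kinase and anaphase-promoting class held 6 of the 14, Ccnb1 (difference -2.09, SE 0.290, adjusted p = 0.000789) and Ube2c (-2.04, SE 0.297, adjusted p = 0.00106) having the largest. Tyms differed by 1.10 (SE 0.142, adjusted p = 0.000512), being higher in cKO cells of the liver and near 1 FPKM in every thymus library. Pcna differed by -0.87 (SE 0.136, adjusted p = 0.00158). None of the 6 MCM subunits passed with limma, and 0 had an unadjusted p under 0.05; their differences ran from -0.21 to 0.24. These results rest on the titles. With the liver directions mirrored, as the descriptions would have it, all 6 MCM subunits passed, with differences of 0.70 to 0.92, and over the 37 genes 28 passed as more positive and 1, Tyms, as more negative; 28.5% of all genes tested passed as more positive and 6.31% as more negative in that reading. FPKM were made separately per tissue, so their levels are not on a common scale. The deposited thymus values are named paired and the liver values single. The effect of tissue cannot be told apart from what these names stand for. Many of the mitotic genes were under 1 FPKM in the thymus, where the pseudocount of 1 shrinks a change. Among the 14 that passed, Tyms, Ccnb1, Cdk1, Aurka, Aurkb, Birc5 and Nusap1 reached the mean of 1 FPKM only through the liver libraries. The same held for Cdc45, Plk1, Bub1b, Cenpf, Kif11, Hmmr, Prc1 and Ncapg, which did not pass. With a pseudocount of 0.1 the count was 6 in place of 14. It was 8 without thymus YFP+ replicate 1 or liver YFP+ replicate 2, and 9 without thymus YFP+ replicate 2.

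**Figure D5:**
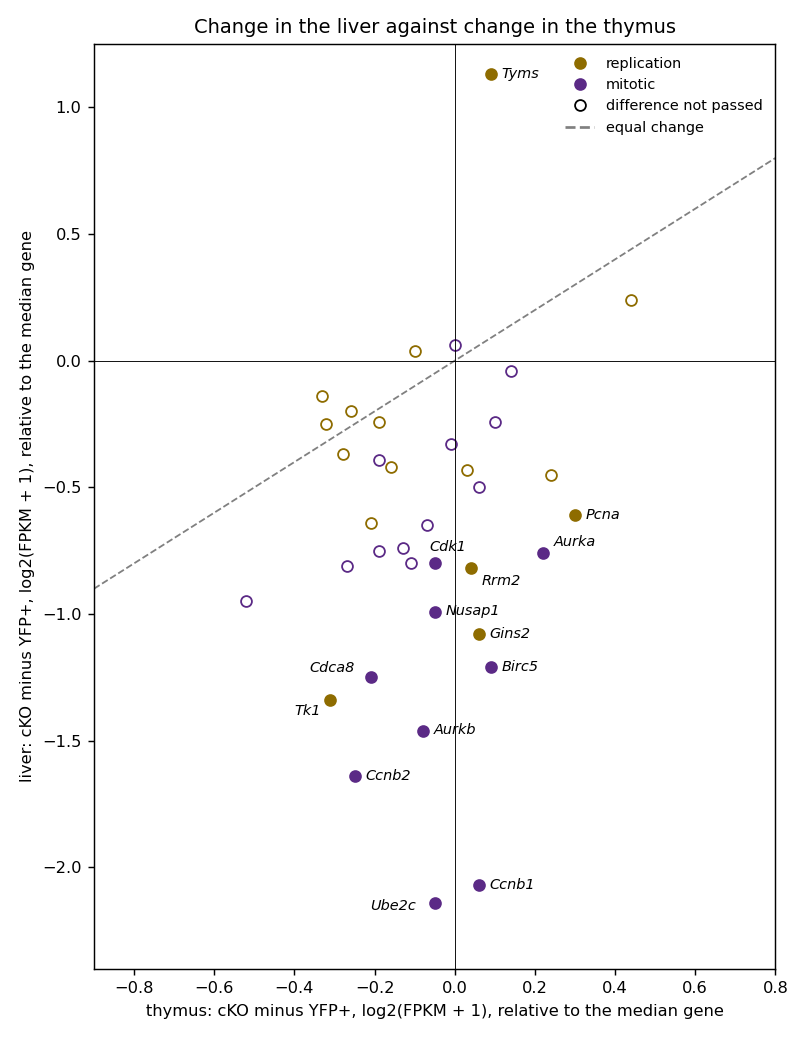
Change of cKO over YFP+ in the liver (vertical axis) against the thymus (horizontal axis), both log2(FPKM + 1) relative to the median gene, for 37 genes; filled, named points passed the test of the difference between tissues and the dashed line marks equal change. With groups taken from the titles, the MCM subunits lie near the line, Ccnb1 and Ube2c far below it and Tyms above it.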

How the data were processed

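The 12 libraries hold RNA of sorted NKT cells, 3 per group. The deposited values are FPKM, which the authors made per tissue in separate tables; per the submitters' processing notes, these involve TopHat2 (2.8.0 as given), Cufflinks 2.1.1 and the mouse build mm9. Per the labels' protocols, cDNA came from a SMARTer low-input kit and libraries from a TruSeq or a ThruPLEX kit, with no kit named per library. FPKM carry no read totals, so depth and counting error are unknown, and abundant transcripts in one library lower its other values. Whether reads were assigned by strand: not given in the sources used here. Each table has 23284 genes, and 0 value columns were left unmapped. The deposited thymus values are named paired and the liver values single. Groups follow the titles.

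The whole table was fitted with limma-trend (limma 3.58.1, R 4.3.3) on log2(FPKM + 1), for genes averaging at least 1 FPKM in the libraries of a fit, with Benjamini-Hochberg adjustment over all of them at 0.05; the pseudocount understates the change of low genes. The fit was tested on simulated data. The difference between tissues is an interaction term over 12 libraries. Alternatives were median-ratio scaling, an equal sum per library, quantile normalization, a pseudocount of 0.1, no filter, a mean of at least 5 FPKM, array weights, a replicate block and leaving out each library. The 45 genes and the 12 lists beside them were chosen with earlier results of these data known, so they get no test of their own. Values per library are given for up to 4 genes per class and tissue that passed with groups apart, for 9 fixed genes and for those that differed between tissues, and of the other lists up to 3 genes per list and tissue are named; genes named beyond this were chosen after their values were seen. Promoters (RefSeq, GRCm38.p6) were searched for motifs on both strands with Python 3.11.15.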

Additional observations from a re-analysis of the deposited data

Results flagged for a closer look

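For 14 genes the change of cKO over YFP+ differed between liver and thymus with limma at an adjusted p under 0.05. Among them, Tyms, Ccnb1, Cdk1, Aurka, Aurkb, Birc5 and Nusap1 averaged under 1 FPKM in the thymus. These entered the test only through their liver libraries, and the pseudocount of 1 shrinks their thymus changes. On the log2(FPKM + 1) scale as fitted, liver minus thymus, the 9 mitotic genes differed by -2.09 (Ccnb1), -2.04 (Ube2c), -1.34 (Ccnb2), -1.33 (Aurkb), -1.25 (Birc5), -0.98 (Cdca8), -0.93 (Aurka), -0.90 (Nusap1) and -0.70 (Cdk1). The 5 replication genes differed by -1.09 (Gins2), -0.98 (Tk1), -0.87 (Pcna), -0.80 (Rrm2) and 1.10 (Tyms). Aurkb, Ccnb1, Ccnb2, Pcna, Tyms and Ube2c, 6 of the 14, passed in every processing alternative in which they were tested, with groups from the titles. The other 8 were lost in 1 (Birc5), 2 (Nusap1), 9 (Gins2), 11 (Aurka), 12 (Cdca8 and Cdk1), 13 (Rrm2) or 14 (Tk1) alternatives.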

How the results depend on the processing

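In the liver 26 of the 45 genes were called, and 21 of these calls held in every alternative in which the gene was tested; a mean of at least 5 FPKM left 17 (8 mitotic) because fewer were tested, and an equal sum per library left 6 replication calls in place of 10. Leaving out 1 library gave 22 to 32 calls in the liver (7 to 13 replication, 15 to 19 mitotic), 2 to 8 in the thymus (2 to 7 replication, 0 to 2 mitotic) and 8 to 13 for the difference between tissues. The liver median, -0.74 as fitted, was -0.62 with median-ratio scaling, -0.54 with an equal sum, -0.56 with quantile normalization or no filter, -0.86 with a pseudocount of 0.1, -0.67 with array weights and -0.77 to -0.67 without 1 library. Thymus calls, 7 in all and 6 of replication genes, were 3, all of replication genes and 1 of them higher, with median-ratio scaling or quantile normalization, 4 with an equal sum (3 replication) and 4 with no filter, with 0 mitotic calls under median-ratio scaling, quantile normalization and no filter. The thymus median, -0.34 as fitted, was -0.16, -0.17 and -0.20 under those 3 settings and -0.37 to -0.29 without 1 library. Over all genes, calls were 240 higher and 1189 lower in the thymus (446 and 363 with median-ratio scaling) and 718 and 1889 in the liver (1034 and 1070, and 1303 and 727 with an equal sum). The difference between tissues gave 14 calls, and 7 with an equal sum, 6 with a pseudocount of 0.1, 8 with no filter and 9 with a mean of at least 5 FPKM. With the liver directions mirrored, an alternative chosen after seeing the data, it gave 29 calls, and its 14 named genes changed sign: Gins2 1.30, Pcna 0.58, Rrm2 1.05, Tyms -0.95, Tk1 1.92, Ccnb1 2.28, Ccnb2 2.16, Cdk1 1.12, Aurka 0.82, Aurkb 1.81, Ube2c 2.46, Birc5 1.40, Cdca8 1.73 and Nusap1 1.31. Ratios of summed FPKM with median-ratio scaling were 0.929 (thymus replication), 0.777 (liver replication) and 0.430 (liver mitotic), and 0.841 and 0.466 in the liver with an equal sum; the ratio of the mitotic to replication share, 0.554 in the liver, was 0.527 without Mki67, Top2a and Ccna2.

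Genes close to 0 changed sign as fitted: in the thymus Cdt1 (0.05 with median-ratio scaling, 0.04 with quantile normalization), Gins2 (0.02 and 0.03), Rrm2 (0.02 and 0.01) and Mki67 (0.06 and 0.08, and 0 with an equal sum), and in the liver E2f1 (0.01 with median-ratio scaling, 0.11 with an equal sum), Cenpf (0.05 with an equal sum) and Hmmr (0.05, 0.16 and 0.03 with median-ratio scaling, an equal sum and quantile normalization). Leaving out 1 library gave ranges of -0.26 to 0.10 for Gins2, -0.29 to 0.04 for Rrm2 and -0.18 to 0.00 for Mki67 in the thymus and of -0.18 to 0.00 for E2f1 in the liver. None of these passed; the cause was not tested. Same-numbered replicates of the groups compared did not deviate together (thymus r from -0.046 to 0.008, liver r from -0.063 to 0.066). Such correlations show no pairing but cannot exclude that same-numbered samples were prepared together. With the replicate block there were 4 calls in the thymus (3 replication), 27 in the liver and 10 for the difference. Depth is unknown, so how far it limits genes under 1 FPKM, 23 of the 45 in the thymus and 5 in the liver, cannot be given.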
